A study of Mus musculus with 16 samples.

Results

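The comparison of TCPOBOP with vehicle was taken up here for the livers of humanized mice. It covers the 8 humanized liver libraries, 4 TCPOBOP and 4 vehicle, among the 16 of the study, and all genes of the deposited count table. In both humanized groups the mice carried the humanized PXR-CAR-CYP3A4/3A7 genome. The vehicle mice received 2% DMSO in corn oil, and the treated mice received TCPOBOP at 3 mg/kg in 2 administrations 24 h apart, with livers taken at 48 h. The other 8 libraries, from C57BL/6 Ntac wild-type mice given the same vehicle or dose, are used only to show where the humanized response differed. The sources used here do not give sex, age, feeding or the hour at which the livers were taken.

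The constitutive androstane receptor (CAR) and the pregnane X receptor (PXR) are nuclear receptors that sense foreign compounds in hepatocytes and switch on genes for their oxidation, conjugation and export. In mouse liver, CAR activation also drives hepatocyte division and lowers genes of glucose production and fatty acid use. TCPOBOP is a potent agonist of mouse CAR, and human CAR is known to respond to it poorly. The study's title names off-target effects of the compound on lipid metabolism, and mice carrying the human receptor are the setting for that question. The introduced human genes are not analysed here.

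The tissue was liver by its markers. Alb, which encodes serum albumin, was at 25450 to 34280 CPM in vehicle and 25910 to 32310 CPM in TCPOBOP libraries (CPM, the usual depth-scaled count, here with TMM factors). None of the 12 hepatocyte markers passed the edgeR test, nor at an unadjusted p under 0.05 or with DESeq2, and their median log2 change was 0.01. Of the mouse genes at the replaced loci, Nr1i3, which encodes CAR, was at 1.63 to 2.69 CPM in vehicle and 2.21 to 5.02 CPM in TCPOBOP libraries, against 93.4 to 107 CPM in wild-type vehicle libraries; its change passed without TCPOBOP replicate 1 (adjusted p = 0.032) and not with all libraries (adjusted p = 0.152). Cyp3a11, the main mouse CYP3A enzyme, was at 0.104 to 0.841 CPM in humanized vehicle libraries and 1281 to 5756 CPM in wild-type ones. All 16 libraries had Xist at 0.62 CPM or less and the Y-linked Ddx3y at 19.4 CPM or more.

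Total counts were 12612610 to 16904182 in the vehicle and 14019983 to 16755802 in the TCPOBOP libraries, and a count of 3 equalled 0.313 to 0.422 CPM. The wild-type TCPOBOP libraries were deeper, at 30228724 to 37998473 counts. The TCPOBOP libraries of humanized mice differed among themselves. The median deviation of transcripts up to 1 kb less that of transcripts over 4 kb, on the log2 scale, was 1.17, 0.56, -0.37 and -0.46 in TCPOBOP replicates 1 to 4 and 0.27 to 0.53 in the vehicle libraries. Replicate 1 lay farthest from the rest on the second principal component. For several lists the counts without it are given as well. Without it, 1 gene rose in each of these lists, which had no rise among all libraries: p53 targets, bile acid synthesis, glucocorticoid and fasting genes, immediate early genes, oxidative phosphorylation, urea cycle and amino acid breakdown, periportal genes, and cholangiocyte markers. In the unfolded protein list 1 gene fell, and 1 of the mouse genes at the replaced loci rose. These lists had 7 to 42 tested members. Over all genes, 649 of 13052 rose without replicate 1 and 7.36% were called, so single members are not read as results of their lists.

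**Figure D1:**
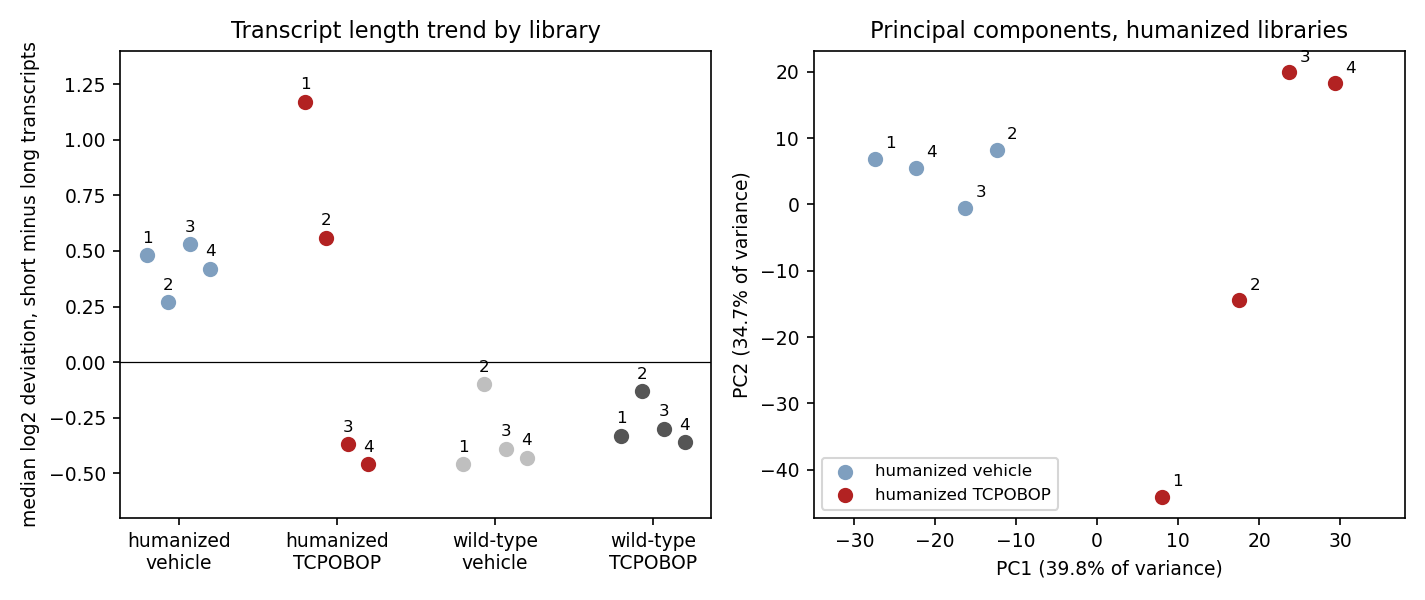
Left, median log2 deviation from the gene mean of short transcripts (up to 1 kb) minus that of long transcripts (over 4 kb) for each of the 16 libraries, with replicate numbers. Right, the 8 humanized libraries on the first 2 principal components of the 1000 most variable genes; PC1 (39.8% of variance) separates the groups and TCPOBOP replicate 1 lies alone at -44.1 on PC2.

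A small share of the liver transcriptome differed between the TCPOBOP and vehicle libraries of humanized mice. The hour of collection is not given, and its part in any of the differences below was not tested. Of 12913 genes tested, 171 rose and 154 fell, 325 in all or 2.52% (1.32% rose and 1.19% fell; edgeR adjusted p under 0.05). Of these, 103 rose and 127 fell at least 2-fold. In wild-type liver 1691 genes (13.1%) passed the same test. These shares over all genes are the background for every list count below. The groups did not overlap for 298 of the 325 genes, and for 1285 of all genes tested (9.95%). The highest rises outside the Mup family were those of Serpina12, Dbp and Rgs16, and the strongest falls among genes named by rule those of Nipal1, Mmd2 and Col5a2.

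The number of changed genes rested on single libraries. Without TCPOBOP replicate 1 it was 960 (7.36% of 13052 genes), of which 649 rose, and 305 of the 325 genes were among them in the same direction. Without vehicle replicates 1, 3 or 4 it was 86, 109 and 74, and without TCPOBOP replicates 3 or 4 it was 157 and 160. Without vehicle replicate 2 or TCPOBOP replicate 2 it was 259 and 365. With the transcript length trend removed, 469 genes passed (3.63%), 315 of the 325 among them. In all 8 leave-outs 67 genes passed, 31 that rose and 36 that fell. The fit without TCPOBOP replicate 1 was skewed by transcript length. Its median log2 change was -0.35 up to 1 kb and 0.17 over 4 kb, against -0.02 and 0.09 with all libraries. Of its 649 rises 351 were in transcripts over 4 kb, against 50 of 171 with all libraries.

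**Figure D2:**
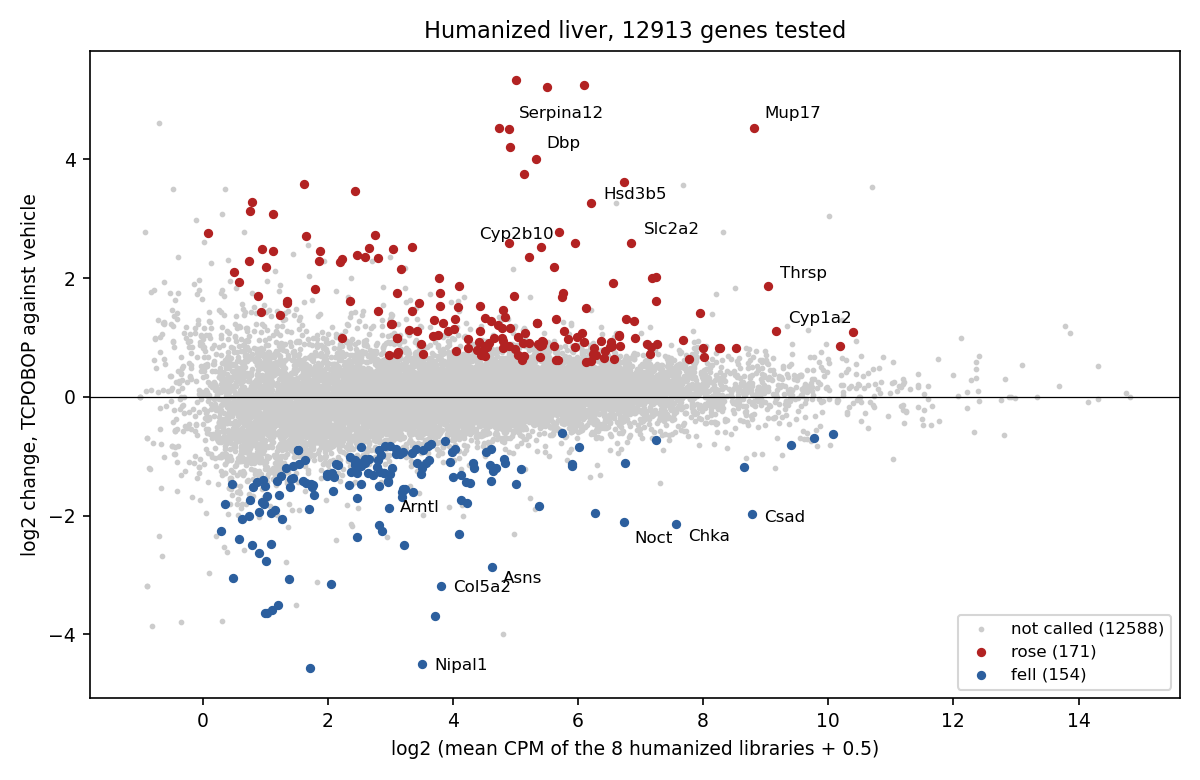
Log2 change under TCPOBOP against the mean level over the 8 humanized libraries (log2 of CPM + 0.5), 1 point per gene tested. Red points are the 171 genes that rose and blue points the 154 that fell; the labelled genes are described in the text.

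Cytochromes P450 of the CAR and PXR target list rose in part. Of 14 tested members, 5 rose and none fell, with a median log2 change of 0.73 against 0.02 over all genes; in wild-type liver 10 rose and 2 fell, with a median of 1.76. Cyp2b10, the classical CAR target (NM_009999, chromosome 7, 25897658 to 25926624, mm10), was at 23.1, 14.9, 15.6 and 16.1 CPM in the vehicle libraries. In the TCPOBOP libraries it was at 79.7, 63.3, 201 and 76.3 CPM, so that every treated library lay above every vehicle library and replicate 3 was highest. The change was 2.59 ± 0.42 on the log2 scale (SE, n = 4 against 4, adjusted p = 0.00434), a 6.04-fold rise. In wild-type liver Cyp2b10 went from 16.4, 37.3, 89.9 and 49.3 to 2871, 3561, 3325 and 3044 CPM, and its log2 effect was lower in humanized liver by 3.45 (interaction adjusted p = 0.00141).

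Cyp1a2, a main hepatic enzyme for planar drugs and caffeine (NM_009993, chromosome 9, 57676937 to 57683655), was at 429, 346, 333 and 345 CPM under vehicle and 527, 893, 925 and 779 CPM under TCPOBOP. All 4 treated libraries were above the vehicle libraries, with replicate 1 nearest to them, and the rise was 1.10 ± 0.20 (adjusted p = 0.0086). Cyp1a1, the related dioxin-inducible enzyme, rose by 1.38 from a low level, 0.841 to 1.16 CPM under vehicle and 2.07 to 3.07 CPM under TCPOBOP, and its effect did not differ between strains by the test (interaction -0.09 ± 0.38, adjusted p = 0.936). Cyp2c55, an inducible CYP2C enzyme, went from 15.8, 15.6, 11.2 and 19.8 to 31.9, 32.6, 41.4 and 38.8 CPM, without overlap (1.21 ± 0.30, adjusted p = 0.0399). Its wild-type rise was 6.12, and the interaction was -4.91 ± 0.43 (adjusted p = 3.02e-06). Cyp2c50 rose by 1.42 (adjusted p = 0.0429), from 125, 135, 148 and 132 to 260.5, 359, 501 and 319.8 CPM, and Cyp2c29, at 2060, 2193, 1979 and 2426 CPM under vehicle and 1659, 2402, 3646 and 2527 CPM under TCPOBOP, overlapped (0.24, adjusted p = 0.729). Some Cyp2c genes are near-identical copies of each other, so single values in this family can be uncertain. Mouse Cyp3a13 did not pass (-0.11, adjusted p = 0.874), and Cyp3a11 stayed at 0.237 to 0.82 CPM. With each of the 8 libraries left out in turn, Cyp2b10 and Cyp1a2 passed every time and Cyp1a1 in 7 of 8, failing without vehicle replicate 4. Cyp2c55 passed in 2 of 8 and Cyp2c50 in 1 of 8, with adjusted p up to 0.123 and 0.142; Cyp2c55 passed only without TCPOBOP replicate 1 or 2, and Cyp2c50 only without TCPOBOP replicate 1.

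**Figure D3:**
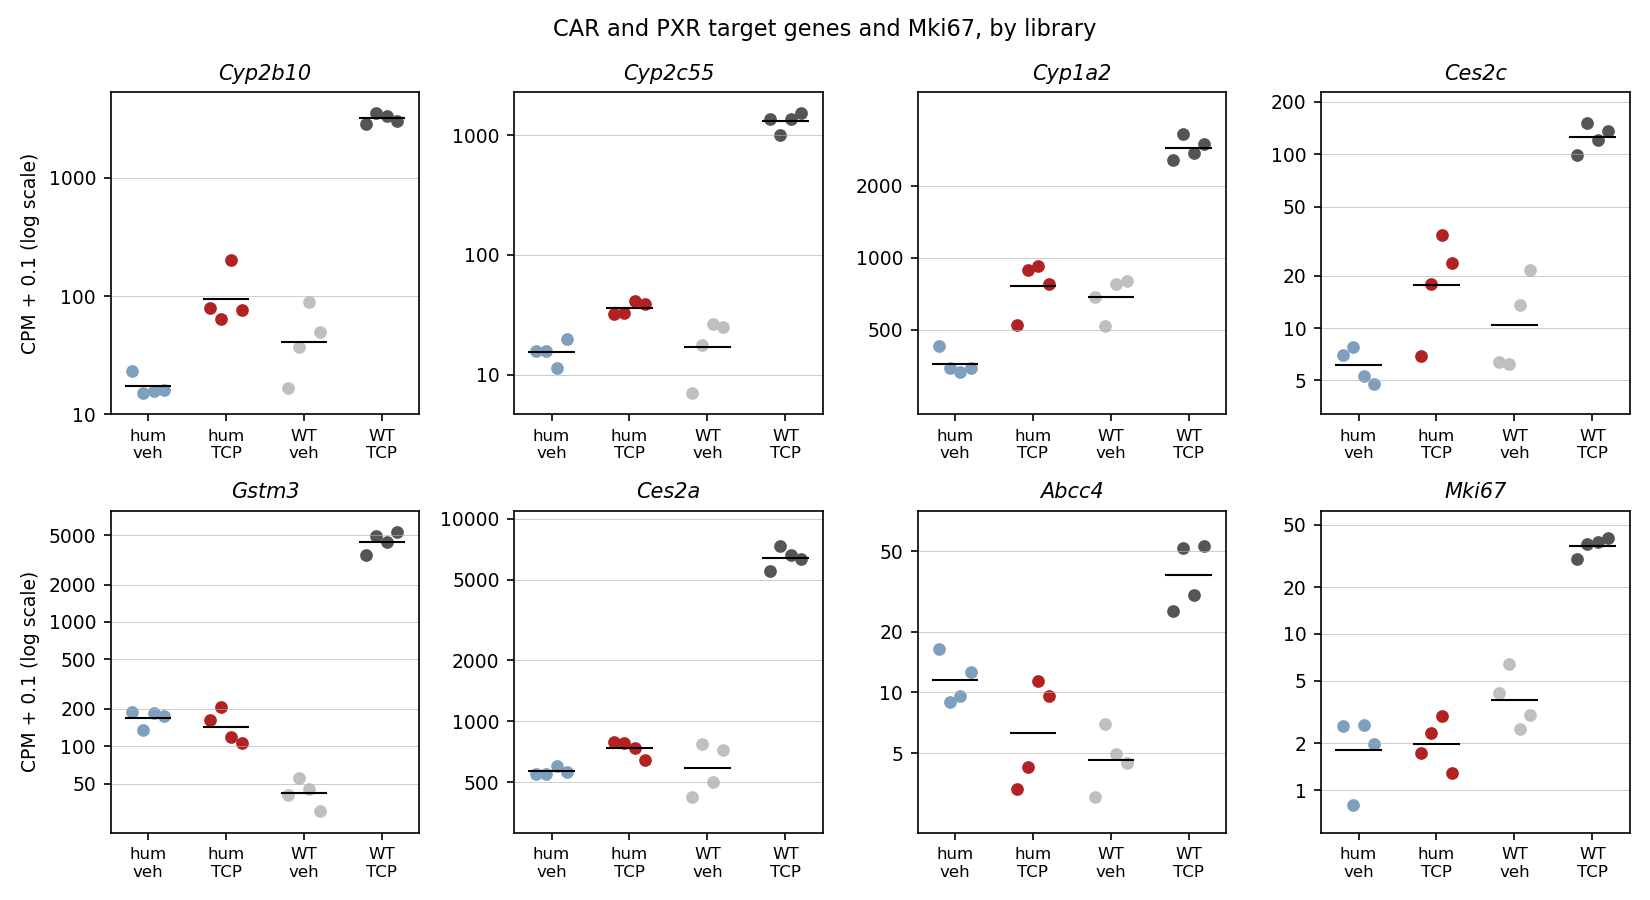
CPM + 0.1 (log scale) of 7 genes of drug oxidation, conjugation and export and of the proliferation gene Mki67, 1 point per library and a bar at the geometric mean; hum is humanized, WT wild-type, veh vehicle and TCP TCPOBOP. Cyp2b10, Cyp2c55 and Cyp1a2 do not overlap between the humanized groups, while Gstm3, Abcc4 and Mki67 overlap there and are higher in all 4 wild-type TCPOBOP libraries than in the wild-type vehicle ones.

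The list of conjugation enzymes, which attach glutathione, glucuronic acid or sulfate, and of some carboxylesterases held far fewer calls than in wild-type liver. Of 38 tested, 1 rose and 1 fell in humanized liver (median 0.15), 2 and 3 without TCPOBOP replicate 1, against 29 that rose and 1 that fell in wild-type liver (median 1.33), and 16 had a lower effect in humanized liver by the interaction test. Gstm3, a glutathione transferase, was at 189, 135, 184 and 174 CPM under vehicle and 162, 207, 118 and 106 CPM under TCPOBOP, which overlapped (-0.20, adjusted p = 0.702). In wild-type liver it went from 40.8, 55.2, 45.6 and 30.2 to 3429, 4875, 4387 and 5249 CPM (interaction -6.91 ± 0.36, adjusted p = 3.48e-09). Gsta1 was at 3.21, 1.16, 1.12 and 0.939 CPM under vehicle and 0.886, 0.279, 0.512 and 0.118 CPM under TCPOBOP in humanized libraries (adjusted p = 0.0883), without overlap, and at 55.3 to 92.1 CPM in wild-type TCPOBOP libraries. Gsta1 passed without TCPOBOP replicate 1 (adjusted p = 0.0376) and with DESeq2 (0.0167).

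The conjugation gene that fell was Gsta2, from 40.6, 14.9, 25.8 and 23.8 to 8.56, 7.95, 9.01 and 5.93 CPM (-1.74 ± 0.44, adjusted p = 0.0445), while it rose in wild-type liver by 1.64 (interaction adjusted p = 0.00247). Its near-identical copies make the single value uncertain. Ces2c, a carboxylesterase that hydrolyses ester drugs, went from 6.95, 7.68, 5.19 and 4.7 to 6.79, 17.9, 34.2 and 23.5 CPM; replicate 1 lay within the vehicle range and the other 3 treated libraries above it (1.75 ± 0.42, adjusted p = 0.0386). Ces2a did not pass although all 4 treated libraries, at 645 to 786 CPM, were above the vehicle range of 547 to 603 CPM (0.38, adjusted p = 0.32). Outside the conjugation list, the carboxylesterases Ces2g and Ces1g, chosen after their values were seen, rose in both strains. Ces2g rose by 1.15 in humanized and 0.74 in wild-type liver, and Ces1g by 0.84 and 0.66 (interaction adjusted p = 0.316 and 0.77). Gsta2 and Ces2c each passed in 2 of 8 leave-outs: Gsta2 without vehicle replicate 2 or TCPOBOP replicate 1, and Ces2c without TCPOBOP replicate 1 or 2, with adjusted p up to 0.171 and 0.129 elsewhere.

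Transporters of organic ions rose in 3 of 16 cases, and none fell (median 0.45); without TCPOBOP replicate 1, 5 rose. Slc22a7, an organic anion transporter of the sinusoidal membrane (NM_144856, chromosome 17, 46432185 to 46438477), went from 16, 22.6, 17.7 and 13.6 to 100.4, 81.8, 74.4 and 61.6 CPM. The groups were far apart, at 2.19 ± 0.38 on the log2 scale (adjusted p = 0.00573, past the threshold in 8 of 8 leave-outs). In wild-type liver it fell by 1.54 (adjusted p = 0.00811), and the interaction was 3.73 ± 0.53 (adjusted p = 0.000375). Slco1a1, which takes up bile acids and steroid conjugates, moved likewise in opposite directions, by 2.02 and -1.84 (adjusted p = 0.048 and 0.0218). Slco1a1 passed in 2 of 8 leave-outs, those without TCPOBOP replicate 1 or 2; elsewhere its adjusted p reached 0.171. The exporter Abcc4 did not pass (-0.73, adjusted p = 0.315) and had an interaction of -3.78 ± 0.52 (adjusted p = 0.000312).

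Proliferation genes were not called in humanized liver. Of 32 S phase genes none passed the edgeR test, 3 had an unadjusted p under 0.05 and 1 rose with DESeq2. Of 32 mitotic genes none passed, none had an unadjusted p under 0.05, and none passed with DESeq2. In wild-type liver 29 of the first and 31 of the second list rose. Mki67, a marker of cycling cells, was at 2.49, 0.698, 2.52 and 1.88 CPM under vehicle and 1.62, 2.23, 2.87 and 1.19 CPM under TCPOBOP (0.08 ± 0.39, adjusted p = 0.949, interaction -3.16 ± 0.50, adjusted p = 0.000857). The cyclin gene Ccnd1 was at 23.2, 15.8, 13.2 and 16.5 CPM under vehicle and 10.04, 10.2, 15.4 and 13 CPM under TCPOBOP (-0.50, adjusted p = 0.575). Cdkn1a, which encodes the cell cycle inhibitor p21, fell from 46.9, 38.9, 86.1 and 84.3 to 18, 38.5, 8.6 and 6.64 CPM, where replicate 2 nearly reached the lowest vehicle library (-1.84 ± 0.47, adjusted p = 0.0449); it passed in 3 of 8 leave-outs, without vehicle replicate 2 or TCPOBOP replicate 1 or 2, with adjusted p up to 0.143. Plk2, a kinase gene induced by p53, fell by 0.79 in humanized and 0.69 in wild-type liver (adjusted p = 0.0228 and 0.00842). Among the leave-outs Plk2 failed without vehicle replicate 1 or 4 (adjusted p up to 0.0848). It failed also with the humanized libraries alone (0.0749) and with the replicate number as a block (0.0575). None of the 16 NRF2 targets passed the edgeR test or DESeq2, and 2 had an unadjusted p under 0.05.

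The circadian clock is a loop in which the activators CLOCK and BMAL1 drive genes of their own repressors through E-boxes, and PAR bZIP factors such as DBP act through D-boxes on further genes. In liver the loop paces metabolic genes over the day. Core clock genes had the highest share of calls among the lists with 10 or more tested members. Of 20 tested, 7 rose and 2 fell, with a median of 0.69, and the groups did not overlap for 14. Over all genes tested, 2.52% were called and the groups did not overlap for 9.95%. In wild-type liver none of the 20 clock genes rose and 1 fell (median -0.33). The hour of collection is not given, and its part in these differences was not tested.

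Promoter windows of 4 called clock genes that hold these motifs are shown to place the motifs the text counts (RefSeq windows, GRCm38.p6, the 250 bases before the annotated transcription start, on the gene's strand, with CACGTG or TTANGTAA in capitals).
Ciart, chr3:95882229-95882478, minus strand: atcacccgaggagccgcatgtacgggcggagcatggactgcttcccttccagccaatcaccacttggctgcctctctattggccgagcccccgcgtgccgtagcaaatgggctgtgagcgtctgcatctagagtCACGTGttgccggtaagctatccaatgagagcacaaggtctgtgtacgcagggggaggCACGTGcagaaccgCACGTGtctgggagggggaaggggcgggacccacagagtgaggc
Tef, chr15:81811164-81811413, plus strand: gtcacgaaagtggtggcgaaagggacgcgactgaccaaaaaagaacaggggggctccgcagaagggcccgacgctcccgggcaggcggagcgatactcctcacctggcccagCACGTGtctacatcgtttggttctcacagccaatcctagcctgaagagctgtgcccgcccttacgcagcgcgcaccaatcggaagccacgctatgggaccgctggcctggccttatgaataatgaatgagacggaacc
Cry1, chr10:85185055-85185304, minus strand: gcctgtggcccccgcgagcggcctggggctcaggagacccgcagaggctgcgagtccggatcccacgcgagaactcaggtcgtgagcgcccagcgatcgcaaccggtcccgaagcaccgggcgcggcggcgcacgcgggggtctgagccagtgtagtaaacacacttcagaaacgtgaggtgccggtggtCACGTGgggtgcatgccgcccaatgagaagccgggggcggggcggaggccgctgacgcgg
Per3, chr4:151044666-151044915, minus strand: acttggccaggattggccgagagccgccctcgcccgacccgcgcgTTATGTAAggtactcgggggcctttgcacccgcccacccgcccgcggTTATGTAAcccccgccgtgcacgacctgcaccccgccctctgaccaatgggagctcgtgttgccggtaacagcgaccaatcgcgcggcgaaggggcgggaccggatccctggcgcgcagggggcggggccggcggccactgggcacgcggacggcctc

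The motif letters were searched on both strands in windows of 250 bases. CACGTG, the E-box read the same on both strands, stood in 6.02% of 32851 such windows of the table, and TTANGTAA, a D-box, in 2.06%. Of the 9 called core clock genes 8 had a window, and 4 of these held CACGTG (Ciart, Tef, Cry1 and Bhlhe41). Among all core clock genes 16 had a window and 5 held CACGTG, the fifth being Per1, which was not called (0.13). The 6.02% counts windows, and a gene can have several, so a link between the motif and a call was not tested. The Ciart window holds CACGTG 3 times, the first copy beginning 116 bases before the start. Per3 holds TTANGTAA at 205 and 158 bases before its start. The Dbp, Nr1d1 and Arntl windows hold neither set of letters, which says only that they are not in these 250 bases.

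Among the genes that rose, Dbp, an activator that binds D-boxes (NM_016974, chromosome 7, 45705100 to 45710203), was at 4.35, 6.29, 3.92 and 3.96 CPM under vehicle. Under TCPOBOP it was at 93.2, 20.1, 106 and 79.7 CPM, above vehicle in all 4 libraries but lower in replicate 2 than in the other 3 (4.01 ± 0.55, adjusted p = 0.00132). Wild-type vehicle libraries ranged from 11.6 to 81.3 CPM and wild-type TCPOBOP libraries from 34.6 to 63.9 CPM (-0.19, adjusted p = 0.859), and the interaction was 4.20 ± 0.71 (adjusted p = 0.00148). The humanized vehicle libraries thus lay below all 8 wild-type libraries for Dbp, and the humanized TCPOBOP libraries lay in the wild-type range or above it. Tef, the second PAR bZIP activator, went from 81.5, 69.6, 58 and 68.2 to 149, 99, 247 and 179 CPM, without overlap (1.28 ± 0.26, adjusted p = 0.0156, interaction 1.61, adjusted p = 0.0105).

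Of the repressors, Ciart went from 1.76, 1.28, 1.68 and 1.88 to 12.6, 3.63, 23.6 and 4.03 CPM, with replicates 2 and 4 nearer to vehicle (2.73 ± 0.59, adjusted p = 0.0241). Bhlhe41 went from 0.829, 0.698, 1.12 and 0.626 to 7.83, 4.33, 11.1 and 12.7 CPM (3.46 ± 0.61, adjusted p = 0.00671), a low level at which each vehicle library still exceeded 3 counts. Bhlhe40, its paralog, rose from 59.5, 76.6, 85.8 and 76.5 to 119.9, 221, 278 and 289 CPM (1.61 ± 0.31, adjusted p = 0.0111). Nr1d1, which encodes the BMAL1 repressor REV-ERB alpha, was at 74.3, 99.4, 56.6 and 59.5 CPM under vehicle and 135, 139.8, 126 and 125 CPM under TCPOBOP (0.86 ± 0.22, adjusted p = 0.0457). Per3 rose from 5.8, 5.12, 4.21 and 6.05 to 21.7, 5.86, 33.4 and 23.5 CPM except in replicate 2, which lay inside the vehicle range (1.99 ± 0.45, adjusted p = 0.0295); this called list member lies outside the naming rule and was chosen after its values were seen. Per2 did not pass (0.81, adjusted p = 0.208).

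The 2 genes that fell were Arntl and Cry1. Arntl, which encodes BMAL1 (NM_007489, chromosome 7, 113178471 to 113314126), was at 24.7, 31, 26.6 and 30.7 CPM under vehicle and 6.2, 16.2, 2.66 and 7.82 CPM under TCPOBOP, where replicate 2 was nearest to vehicle (-1.79 ± 0.40, adjusted p = 0.0269). Cry1, a repressor of the activator pair, went from 11.5, 13.3, 18.2 and 17.9 to 5.02, 7.39, 7.58 and 6.4 CPM (-1.20 ± 0.21, adjusted p = 0.00567), and fell by a like amount in wild-type liver (-1.07, adjusted p = 0.00142; interaction -0.13 ± 0.29). TCPOBOP replicate 2 was the treated library nearest to the vehicle mean for 6 of the 9 called genes, and replicate 3 the farthest for 5. In the leave-outs Dbp, Bhlhe41 and Cry1 passed in 8 of 8. Bhlhe40 failed without vehicle replicate 1 (adjusted p = 0.0565) and Tef without vehicle replicates 3 or 4 (up to 0.0679). Ciart passed in 3 of 8, Arntl and Nr1d1 in 2 of 8, with adjusted p up to 0.0909, 0.0843 and 0.166. Removing any of the 4 vehicle libraries or TCPOBOP replicate 3 ended the calls of Ciart and Arntl, and TCPOBOP replicate 4 also that of Arntl. Removing vehicle replicates 1, 3 or 4 or TCPOBOP replicates 2, 3 or 4 ended that of Nr1d1.

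**Figure D4:**
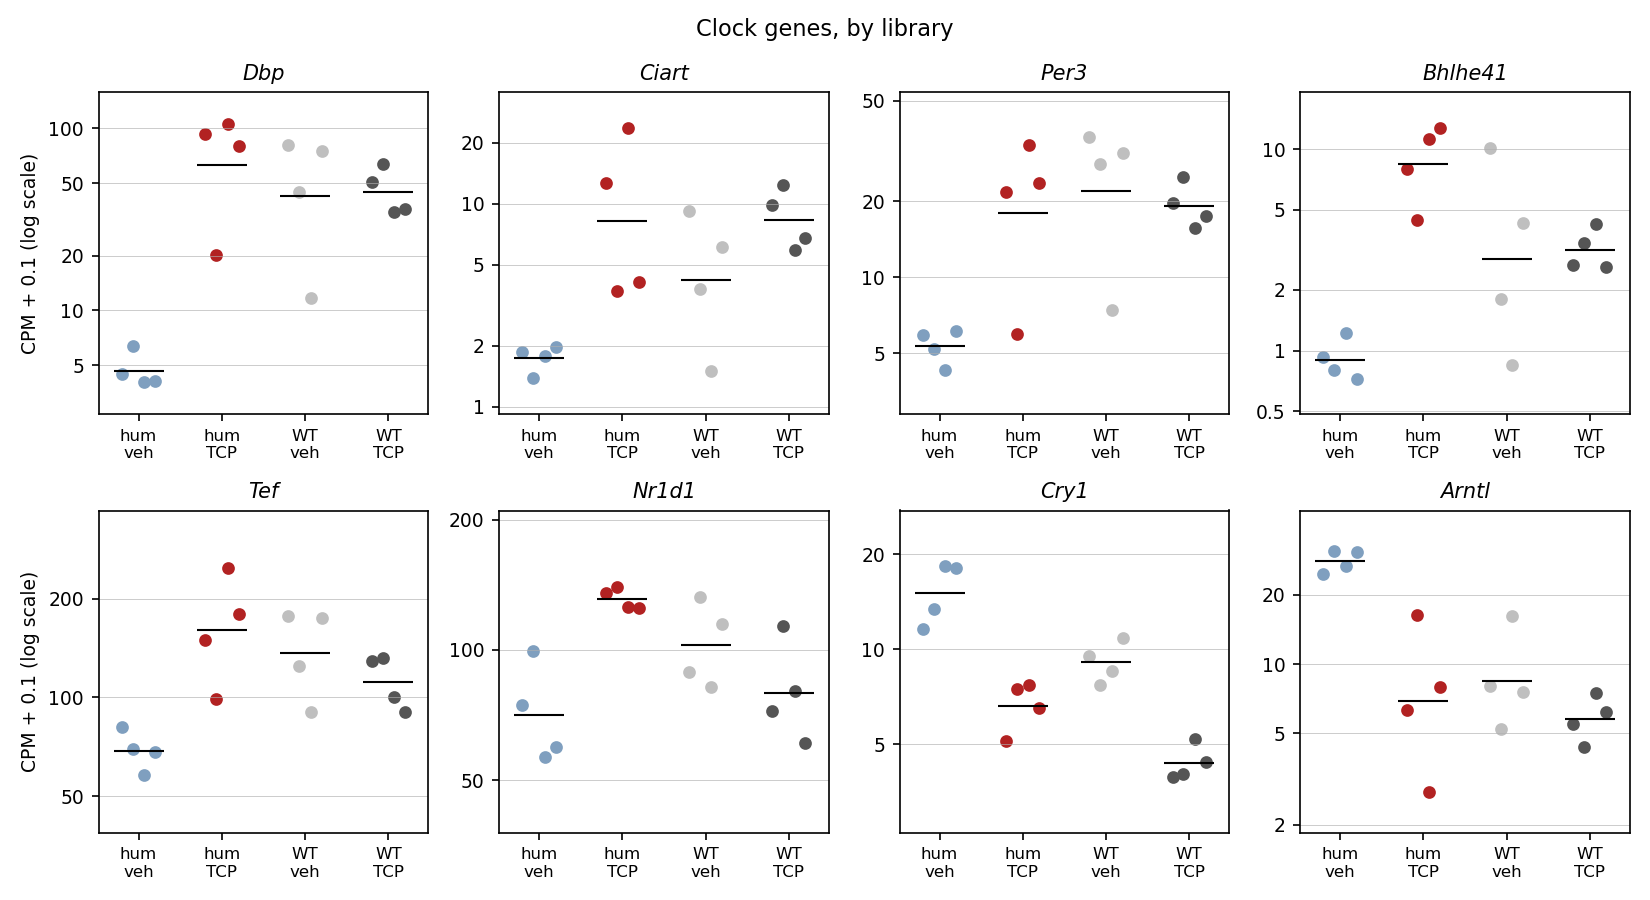
CPM + 0.1 (log scale) of 8 core clock genes in the 16 libraries, 1 point per library and a bar at the geometric mean of a group; hum is humanized, WT wild-type, veh vehicle and TCP TCPOBOP. The 4 humanized vehicle libraries cluster tightly, low for Dbp, Ciart, Per3 and Bhlhe41 and high for Arntl, and the humanized TCPOBOP libraries spread between replicates.

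Genes paced by the clock moved in both directions: of 26 tested, 4 rose and 5 fell (median 0.07). Noct, which encodes a night-phased phosphatase known as Nocturnin (NM_009834, chromosome 3, 51224447 to 51251654), fell from 199, 116, 242 and 130 to 47.8, 32.6, 53.7 and 24.3 CPM, with a wide gap between the groups (-2.12 ± 0.27, adjusted p = 0.00116). It rose in wild-type liver, from 17.9, 14.5, 11 and 17.3 to 45.5, 71, 54.8 and 57.5 CPM (interaction -4.04 ± 0.39, adjusted p = 7.07e-06). Usp2, a deubiquitinase gene, rose from 6.01, 7.22, 13 and 7.2 to 54.8, 20.4, 98.8 and 26.3 CPM (2.59 ± 0.52, adjusted p = 0.0151), and failed without vehicle replicates 1 or 4 (adjusted p up to 0.0733). Lonrf3 fell from 11, 9.08, 10.7 and 12.1 to 3.69, 7.25, 3.48 and 4.27 CPM (-1.20 ± 0.28, adjusted p = 0.0329); it passed in 3 of 8 leave-outs, those without vehicle replicate 2 or TCPOBOP replicate 1 or 2 (adjusted p up to 0.106 elsewhere). Rgs16, a regulator of G protein signalling with a daily rhythm in liver, went from 13.7, 26.8, 7.85 and 15.2 to 125, 141, 394 and 125 CPM, and replicate 3 stood above the other treated libraries (3.62 ± 0.53, adjusted p = 0.0019). Its wild-type libraries held 103 to 416 CPM under vehicle and 73.2 to 238 CPM under TCPOBOP (interaction 4.23 ± 0.70, adjusted p = 0.00127).

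In humanized liver the called male-biased genes rose and the called female-biased genes fell. Of 24 male-biased genes 4 rose and none fell (median 0.78), and of 17 female-biased genes none rose and 2 fell (median -1.43). Without TCPOBOP replicate 1, 7 of the first rose and 1 of the second fell. In wild-type liver 2 male-biased genes rose and 7 fell (median -0.36), and 5 female-biased genes rose and 5 fell (median -0.54). Over all genes tested in humanized liver with all libraries, 1.32% rose and 1.19% fell. The major urinary proteins, pheromone carriers made in bulk by male liver, were summed because single Mup genes are near-identical copies whose values are uncertain. The 22 Mup genes together held 2848, 4854, 6171 and 3819 CPM in the vehicle libraries. They held 11800, 16370, 8286 and 15990 CPM in the TCPOBOP libraries, so the groups did not overlap and replicate 3 was lowest. In wild-type libraries the sum ran from 1150 to 12590 CPM under vehicle and from 4376 to 13430 CPM under TCPOBOP. The family held 7 of the 15 strongest named rises, from 3.75 for Mup2 to 5.33 for Mup9 (adjusted p = 0.0379 and 0.013). Of these only Mup18 (5.21, adjusted p = 0.00861) passed in all 8 leave-outs; each of the other 6 (Mup1, Mup2, Mup9, Mup12, Mup16, Mup17) failed without vehicle replicate 1 and without vehicle replicate 4, with adjusted p up to 0.129. Mup1, Mup2, Mup12 and Mup17 failed also without TCPOBOP replicate 4, Mup2, Mup12 and Mup17 without vehicle replicate 2, Mup1 and Mup12 without vehicle replicate 3, and Mup2 without TCPOBOP replicate 2.

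Hsd3b5, a male-specific steroid dehydrogenase (NM_008295, chromosome 3, 98618636 to 98645534), was at 3.83, 27.9, 17.1 and 6.89 CPM under vehicle and 84.2, 194, 104 and 151 CPM under TCPOBOP, without overlap (3.27 ± 0.62, adjusted p = 0.0108). It fell in wild-type liver by 2.46, so that the interaction was 5.73 ± 0.85 (adjusted p = 0.000594). Without vehicle replicate 4 its adjusted p was 0.0566. Nipal1, a magnesium transporter gene on the female list, fell from 20.9, 13.5, 7.43 and 41.4 to 0.443, 0, 2.66 and 0.237 CPM, and every treated library lay below every vehicle library (-4.50 ± 0.71, adjusted p = 0.00341). Abcd2, a peroxisomal fatty acid transporter, went from 11.8, 14, 3.92 and 13.5 to 0.738, 0.558, 5.94 and 1.9 CPM, where vehicle replicate 3 and TCPOBOP replicate 3 overlapped (-2.17 ± 0.55, adjusted p = 0.0455, passing in 2 of 8 leave-outs, those without vehicle replicate 3 or TCPOBOP replicate 3, up to 0.129). Serpina12, a secreted serpin known as vaspin, went from 1.24, 2.68, 4.62 and 1.46 to 89.5, 68.4, 22.9 and 42.9 CPM (4.52 ± 0.61, adjusted p = 0.00132). Its wild-type vehicle libraries held 51.9, 7.04, 49.9 and 75.8 CPM, and the interaction was 5.22 ± 0.78 (adjusted p = 0.000606).

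Of 31 genes of gluconeogenesis, glycolysis and glycogen 5 rose and none fell (median 0.36), against 2 and 5 in wild-type liver. Slc2a2, which encodes the hepatic glucose transporter GLUT2 (NM_031197, chromosome 3, 28697903 to 28728361), was at 36.9, 32.9, 28.9 and 31.5 CPM under vehicle and 87.6, 141, 318 and 239.7 CPM under TCPOBOP. All treated libraries were far above the vehicle ones, and replicate 1 was lowest among them (2.59 ± 0.34, adjusted p = 0.00116, a 6.04-fold rise). In wild-type liver it fell, from 316, 150.3, 260.4 and 299 to 101, 113, 80.2 and 60.7 CPM (interaction 4.12 ± 0.47, adjusted p = 4.27e-05).

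Pfkfb3, which makes the glycolysis activator fructose 2,6-bisphosphate, went from 7.67, 12.3, 13.5 and 14.5 to 27.9, 53.1, 111 and 51.9 CPM (2.35 ± 0.35, adjusted p = 0.0019, interaction 1.90, adjusted p = 0.0176). Pklr, the liver pyruvate kinase, rose by 1.31, Gys2, the liver glycogen synthase, by 1.03, and Pygl, the liver glycogen phosphorylase, by 0.82 (adjusted p = 0.0399, 0.0449 and 0.023). Pygl rose by 0.81 in wild-type liver (adjusted p = 0.00453; interaction 0.02 ± 0.25, adjusted p = 0.984). Pck1 and G6pc, the control enzymes of glucose output, did not pass (0.08 and -0.13, adjusted p = 0.921 and 0.918), while Pck1 fell in wild-type liver (interaction 2.04 ± 0.41, adjusted p = 0.0046). Of 20 insulin signalling genes, Inhbe rose by 1.45 and Lepr, the leptin receptor gene, fell by 1.65 (adjusted p = 0.0484 and 0.0399); without TCPOBOP replicate 1, 2 of the 20 rose and 1 fell. Slc2a2 and Pfkfb3 passed in 8 of 8 leave-outs, Pygl in 3, Pklr and Gys2 in 2, and Inhbe and Lepr in 1. For those 5 genes the adjusted p rose to 0.0938, 0.13, 0.144, 0.174 and 0.117 in the others, which included the removal of vehicle replicates 1, 3 or 4 and of TCPOBOP replicates 3 or 4 for each of them; without vehicle replicate 2 Gys2, Inhbe and Lepr failed, without TCPOBOP replicate 2 Pklr and Lepr, and without TCPOBOP replicate 1 Inhbe.

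The lipid lists held a few rises and no common fall. Over all genes tested, 1.32% rose, 1.19% fell and 7.46% were called by the interaction test. Of 43 PPAR alpha targets and fatty acid oxidation genes 4 rose and 1 fell (median 0.21), while in wild-type liver none rose and 20 fell (median -0.60), and 18 had a higher effect in humanized liver by the interaction test. Bdh1, a dehydrogenase of ketone body metabolism, rose by 0.72, Ucp2, a mitochondrial carrier, by 0.99, and Vnn1, a pantetheinase and PPAR alpha target, by 1.58 (adjusted p = 0.0343, 0.0409 and 0.0261). Pdk4, the kinase that limits glucose oxidation in fasting, fell from 22.2, 16.9, 17.2 and 41.1 to 8.86, 10.04, 12.7 and 7.35 CPM (-1.32 ± 0.31, adjusted p = 0.0349). Ppara itself was at 146, 138, 150.3 and 144 CPM under vehicle and 139, 238, 478 and 394 CPM under TCPOBOP, highest in replicates 3 and 4, and did not pass (1.11 ± 0.30, adjusted p = 0.058). Ppara passed without TCPOBOP replicate 1 (adjusted p = 0.00604) or 2 (0.0487), with no filter (0.0461), with the length trend removed (0.0425) and with DESeq2 (0.00955).

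Of 30 lipogenic genes 3 rose and 1 fell (median 0.22). Thrsp, a lipogenesis gene known as Spot 14 (NM_009381, chromosome 7, 97412933 to 97417550), went from 222, 279.9, 187 and 214 to 937, 809, 995 and 536 CPM, without overlap (1.86 ± 0.38, adjusted p = 0.0169). Acot11, an acyl-CoA thioesterase, went from 3.73, 3.26, 2.8 and 1.67 to 12.4, 17.7, 14 and 22.1 CPM (2.53 ± 0.36, adjusted p = 0.00163), and rose in wild-type liver too (1.19, adjusted p = 0.0173). The remaining rise of the list was Pklr. Elovl5, an elongase of polyunsaturated fatty acids, fell by 1.19 in humanized and 1.16 in wild-type liver (adjusted p = 0.0379 and 0.01). Fasn and Srebf1, the fatty acid synthase and its regulator, did not pass: Fasn was at 267 to 463 CPM under vehicle and 313 to 752 CPM under TCPOBOP (0.52, adjusted p = 0.561), Srebf1 at 181 to 285 CPM under vehicle and 166 to 436 CPM under TCPOBOP (0.31, adjusted p = 0.79). Scd1, the main stearoyl-CoA desaturase, ranged from 1000 to 6246 CPM among the treated libraries, lowest in replicate 1 (-0.59, adjusted p = 0.517). Pnpla3, a lipid droplet enzyme gene, was at 11.2, 11.9, 2.8 and 11.1 CPM under vehicle and 6.05, 12.7, 4.2 and 1.07 CPM under TCPOBOP (-0.65, adjusted p = 0.792).

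Of 31 lipid droplet and lipolysis genes 3 rose and none fell (median 0.28), against 2 and 9 in wild-type liver. Mgll, the monoglyceride lipase, went from 81.7, 70.4, 101 and 68.6 to 179, 166, 169.6 and 122 CPM (0.98 ± 0.19, adjusted p = 0.0131; interaction 1.91 ± 0.27, adjusted p = 0.000415). Fabp2, a fatty acid binding protein, rose by 0.98 and Pparg, a lipid storage regulator, by 0.70 from 5.18, 5.59, 6.45 and 5.32 to 9.45, 8.65, 10.04 and 8.53 CPM (adjusted p = 0.0383 and 0.0449). Cidec and Cd36 did not pass (0.84 and 0.47, adjusted p = 0.281 and 0.378). Of 32 lipoprotein genes 2 rose: Mttp, which loads lipid onto apolipoprotein B, by 0.82, as in wild-type liver (0.77; interaction 0.04 ± 0.28), and Lipg, a lipase, from 4.77, 3.26, 3.22 and 3.65 to 6.79, 8.37, 26.4 and 8.3 CPM, highest in replicate 3 (1.75; adjusted p = 0.0416 and 0.04). Of the called lipid genes Acot11 passed in 8 of 8 leave-outs, Mgll in 7 (0.0697 without vehicle replicate 4) and Thrsp in 5 (up to 0.0712 without vehicle replicates 1, 3 or 4). Pdk4 and Fabp2 passed in 4, Bdh1, Mttp and Lipg in 3, Vnn1, Elovl5 and Pparg in 2, and Ucp2 in 1, with adjusted p up to 0.149. Removing vehicle replicate 1 or 4 ended each of these 9 calls, vehicle replicate 3 all but that of Pdk4, and vehicle replicate 2 all but those of Pdk4, Bdh1 and Mttp. Removing TCPOBOP replicate 2 ended those of Pdk4, Ucp2 and Elovl5; TCPOBOP replicate 3 all but those of Pdk4, Fabp2 and Elovl5; and TCPOBOP replicate 4 all but those of Fabp2 and Lipg.

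Of 21 genes of bile acid synthesis none passed the edgeR test, 5 had an unadjusted p under 0.05 and 1 fell with DESeq2. Cyp7a1, the rate-limiting enzyme of bile acid synthesis, was at 169, 82.2, 113 and 102 CPM under vehicle and 22, 35.2, 102 and 27.3 CPM under TCPOBOP, where replicate 3 lay within the vehicle range and the other 3 below it (-1.32 ± 0.36, adjusted p = 0.0632). Cyp7a1 passed without TCPOBOP replicate 3 (adjusted p = 0.000906), with the length trend removed (0.0363) and with DESeq2 (0.0205). Of 25 cholesterol synthesis genes none passed, 3 had an unadjusted p under 0.05 and none passed with DESeq2 (median -0.02). No gene passed the edgeR test among 20 glucocorticoid and fasting genes (5 at an unadjusted p under 0.05, 1 with DESeq2) or 16 immediate early genes (1 and 1), nor among 27 unfolded protein and heat shock genes (1 and 0) or 30 genes of oxidative phosphorylation (1 and 0).

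The named genes of amino acid metabolism that passed, Csad, Asns, Cth and Sdsl, all fell. Csad, which makes the taurine precursor hypotaurine from cysteine sulfinate (NM_144942, chromosome 15, 102176997 to 102205052), was at 698, 592, 830 and 680 CPM under vehicle and 178, 145, 187 and 203 CPM under TCPOBOP. The 2 groups were tight and far apart (-1.97 ± 0.26, adjusted p = 0.00116), and in wild-type liver the change was 0.28 (adjusted p = 0.547; interaction -2.26 ± 0.36, adjusted p = 0.000857). Asns, the asparagine synthetase (NM_012055, chromosome 6, 7675165 to 7693209), went from 26.3, 45.4, 56.3 and 42.8 to 6.5, 8.93, 2.66 and 5.69 CPM (-2.86 ± 0.53, adjusted p = 0.00907), and its interaction was -4.32 ± 0.72 (adjusted p = 0.00133). Cth, the transsulfuration enzyme cystathionine gamma-lyase, fell from 878, 884, 889 and 822 to 391, 608, 542 and 429 CPM (-0.82 ± 0.20, adjusted p = 0.0398). Asns and Cth were the 2 called members of 18 ATF4 targets (median -0.40). Cth was also the single call among 42 genes of the urea cycle and amino acid breakdown (median -0.20). With 2.52% called over all genes tested, that single call is not read as a result of its list. Sdsl, a serine dehydratase-like gene of the periportal list, fell by 1.48 (adjusted p = 0.0492). Chka, the choline kinase, fell from 330.5, 265, 281 and 351 to 109, 114, 17.1 and 38.5 CPM, lowest in replicates 3 and 4 (-2.14 ± 0.39, adjusted p = 0.00861). Csad, Asns and Chka passed in 8 of 8 leave-outs, but Chka did not pass with the humanized libraries alone (adjusted p = 0.0554). Among the leave-outs Cth passed without TCPOBOP replicates 1 or 2 only (adjusted p up to 0.105), and Sdsl without TCPOBOP replicate 1 only (up to 0.138).

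Of 22 retinoid genes 2 rose and 1 fell, or 1 and 2 without TCPOBOP replicate 1 (median 0.04). Cyp26b1, which breaks down retinoic acid, fell in both strains, from 15.1, 15.1, 17.4 and 11.4 to 2.51, 5.02, 4.81 and 6.99 CPM in humanized liver (-1.60 ± 0.30, adjusted p = 0.00937) and by 3.39 in wild-type liver, where the effect was greater (interaction 1.79 ± 0.42, adjusted p = 0.0137). Aldh1a1, a retinaldehyde dehydrogenase on the retinoid and pericentral lists, went from 855, 814, 933 and 854 to 2469, 1849, 1515 and 1525 CPM (1.09 ± 0.28, adjusted p = 0.0493); its call was lost with any of the 8 libraries left out (adjusted p up to 0.152). Its relative Aldh1a7 rose by 0.63 in humanized and 2.05 in wild-type liver (adjusted p = 0.0366 and 1.13e-07), and passed in 3 of 8 leave-outs, failing without vehicle replicates 1, 3 or 4 or TCPOBOP replicates 3 or 4 (up to 0.13). Of 36 hepatic transcription factors, Pparg rose and Ppard fell, the latter from 25.9, 23.6, 31 and 29.2 to 7.68, 18, 9.83 and 12.2 CPM (-1.20 ± 0.23, adjusted p = 0.0115); without TCPOBOP replicate 1, 7 of them rose. Sik1, a kinase gene induced by cAMP, fell from 151, 74.7, 110.2 and 153 to 34.5, 34.3, 42.9 and 14.2 CPM (-1.96 ± 0.33, adjusted p = 0.00497; interaction -2.92 ± 0.45, adjusted p = 0.000732).

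Of 22 heme and iron genes Cpox, an enzyme of heme synthesis, rose by 0.84 (adjusted p = 0.0278), and failed without vehicle replicates 1, 3 or 4 or TCPOBOP replicates 3 or 4 (up to 0.106). Of 30 acute phase and complement genes Orm3, an acid glycoprotein gene, rose from 7.67, 11.9, 13.7 and 19.1 to 185, 86.5, 29.9 and 59 CPM, highest in replicate 1 (2.78 ± 0.48, adjusted p = 0.00567), and by 2.35 in wild-type liver (adjusted p = 0.00205). Near-identical Orm copies make the value of the single gene uncertain. Without TCPOBOP replicate 1, 2 acute phase genes rose. Of 24 interferon genes Mx1 fell at a low level, from 3.11, 2.1, 2.52 and 2.71 to 0.886, 0.558, 1.84 and 0.474 CPM (-1.42, adjusted p = 0.0399), and passed in 2 of 8 leave-outs, those without TCPOBOP replicates 1 or 3 (up to 0.133). Of 21 periportal genes 1, Sdsl, fell (median -0.35), while 11 fell in wild-type liver (median -0.95). Of 22 pericentral genes 3 rose (median 0.46), among them Cyp1a2 and Aldh1a1.

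Stellate cells are the vitamin A storing cells of the sinusoid. Of 16 stellate and fibroblast markers, Ecm1 and Colec11 fell and none rose (median -0.51). Ecm1, a secreted matrix protein, went from 152, 130.4, 162 and 140 to 75.6, 48.8, 73.8 and 72.1 CPM (-1.11 ± 0.18, adjusted p = 0.00394), and Colec11, a collectin, from 36.6, 35.4, 37 and 40.9 to 17.7, 10.04, 22.5 and 22.3 CPM (-1.04 ± 0.21, adjusted p = 0.0164, 0.0697 without vehicle replicate 4). The call of Colec11 was also lost with the length trend removed (adjusted p = 0.0944) and with the humanized libraries alone (0.0714). Col5a2, Loxl4 and Fst belong to none of the lists and are named for the size of their change. Col5a2, a fibrillar collagen gene, fell from 31.5, 27.9, 17.4 and 20.9 to 0.591, 2.65, 3.28 and 4.03 CPM (-3.18 ± 0.52, adjusted p = 0.00434). Loxl4, a collagen cross-linking enzyme, fell from 9.64, 15.6, 8.97 and 10.8 to 0.443, 4.74, 1.43 and 2.85 CPM (-2.25 ± 0.45, adjusted p = 0.0156), and Fst, which encodes the activin inhibitor follistatin, from 9.74, 6.52, 7.99 and 9.39 to 0.886, 3.35, 1.43 and 0.948 CPM (-2.36 ± 0.36, adjusted p = 0.00256). The summed level of the 16 stellate markers was 445.3 to 472.2 CPM in vehicle and 157.1 to 404.5 CPM in TCPOBOP libraries, and its part in the collagen result was not tested. In bulk liver, fewer cells of a type and less RNA per cell cannot be told apart.

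Markers of other cells followed the treated library rather than the group. The median log2 ratio to vehicle of 16 sinusoidal endothelial markers was -1.01 and -0.83 in TCPOBOP replicates 1 and 2 and 0.61 and 0.54 in replicates 3 and 4. For the stellate list it was -1.40, -1.26, -0.15 and 0.11, and for 16 Kupffer cell markers -0.64, -0.20, 0.96 and 0.74. None of the endothelial markers passed the edgeR test or DESeq2, and 1 had an unadjusted p under 0.05. Among Kupffer and macrophage markers, the scavenger receptor gene Cd163 rose by 1.28 and the monocyte receptor gene Ccr2 fell by 2.01 (adjusted p = 0.0484 and 0.0399); without TCPOBOP replicate 1, 3 of the 16 rose. Cd163 rested on replicates 3 and 4, at 17.7, 16.5, 54.7 and 46.2 CPM under TCPOBOP against 15.3, 13.3, 11.2 and 16.1 CPM under vehicle, and without either its adjusted p was past 0.05, up to 0.161. Among the leave-outs it passed only without TCPOBOP replicate 1 or 2, and Ccr2 only without vehicle replicate 2 or TCPOBOP replicate 1 (up to 0.152). No marker of cholangiocytes, neutrophils, red cells, fat or pancreas and gut passed the edgeR test (7, 2, 8, 2 and 3 tested; 2, 1, 1, 2 and 1 at an unadjusted p under 0.05). With DESeq2 1 marker each of the cholangiocyte, neutrophil and fat lists fell.

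The remaining genes with the strongest changes belonged to no list. Mmd2, a membrane protein gene, went from 31.9, 23.1, 15.7 and 23.8 to 1.03, 2.23, 2.97 and 0.948 CPM (-3.68 ± 0.90, adjusted p = 0.0399). It fell in wild-type liver too (-2.67, adjusted p = 0.0255). Among the leave-outs it passed only without TCPOBOP replicate 1, with adjusted p up to 0.109 elsewhere. Cdc42ep5 fell from 9.12, 13, 24.9 and 12.6 to 6.2, 2.79, 1.23 and 0.711 CPM (-2.49 ± 0.51, adjusted p = 0.017; up to 0.068 without vehicle replicate 3 or TCPOBOP replicate 3). Tspyl4 fell from 7.46, 12.6, 15.4 and 11.1 to 0.738, 3.91, 3.17 and 4.62 CPM (-1.88 ± 0.43, adjusted p = 0.0329; up to 0.0853 without vehicle replicates 2, 3 or 4 or TCPOBOP replicate 3).

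The humanized and wild-type responses shared a part of their calls. Of the 325 genes called in humanized liver, 93 were also called in wild-type liver, which is 28.6% of the first and 5.5% of the second list. Over all genes tested, 13.1% were called in wild-type liver and 2.52% in humanized liver. Among the 93, 50 changed in the same direction, 37 that rose and 13 that fell, and 43 in opposite directions, 30 of which rose in humanized and fell in wild-type liver. Cyp2b10, Cyp1a2, Cyp2c55, Cry1 and Plk2 were in the first set, and Slc2a2, Hsd3b5, Slc22a7, Mgll and Noct in the second. The interaction test of the difference between the strains' effects called 963 of 12913 genes (7.46%), and 149 of the 325. Without TCPOBOP replicate 1 the interaction called 1782 genes, and without vehicle replicate 4 it called 630.

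**Figure D5:**
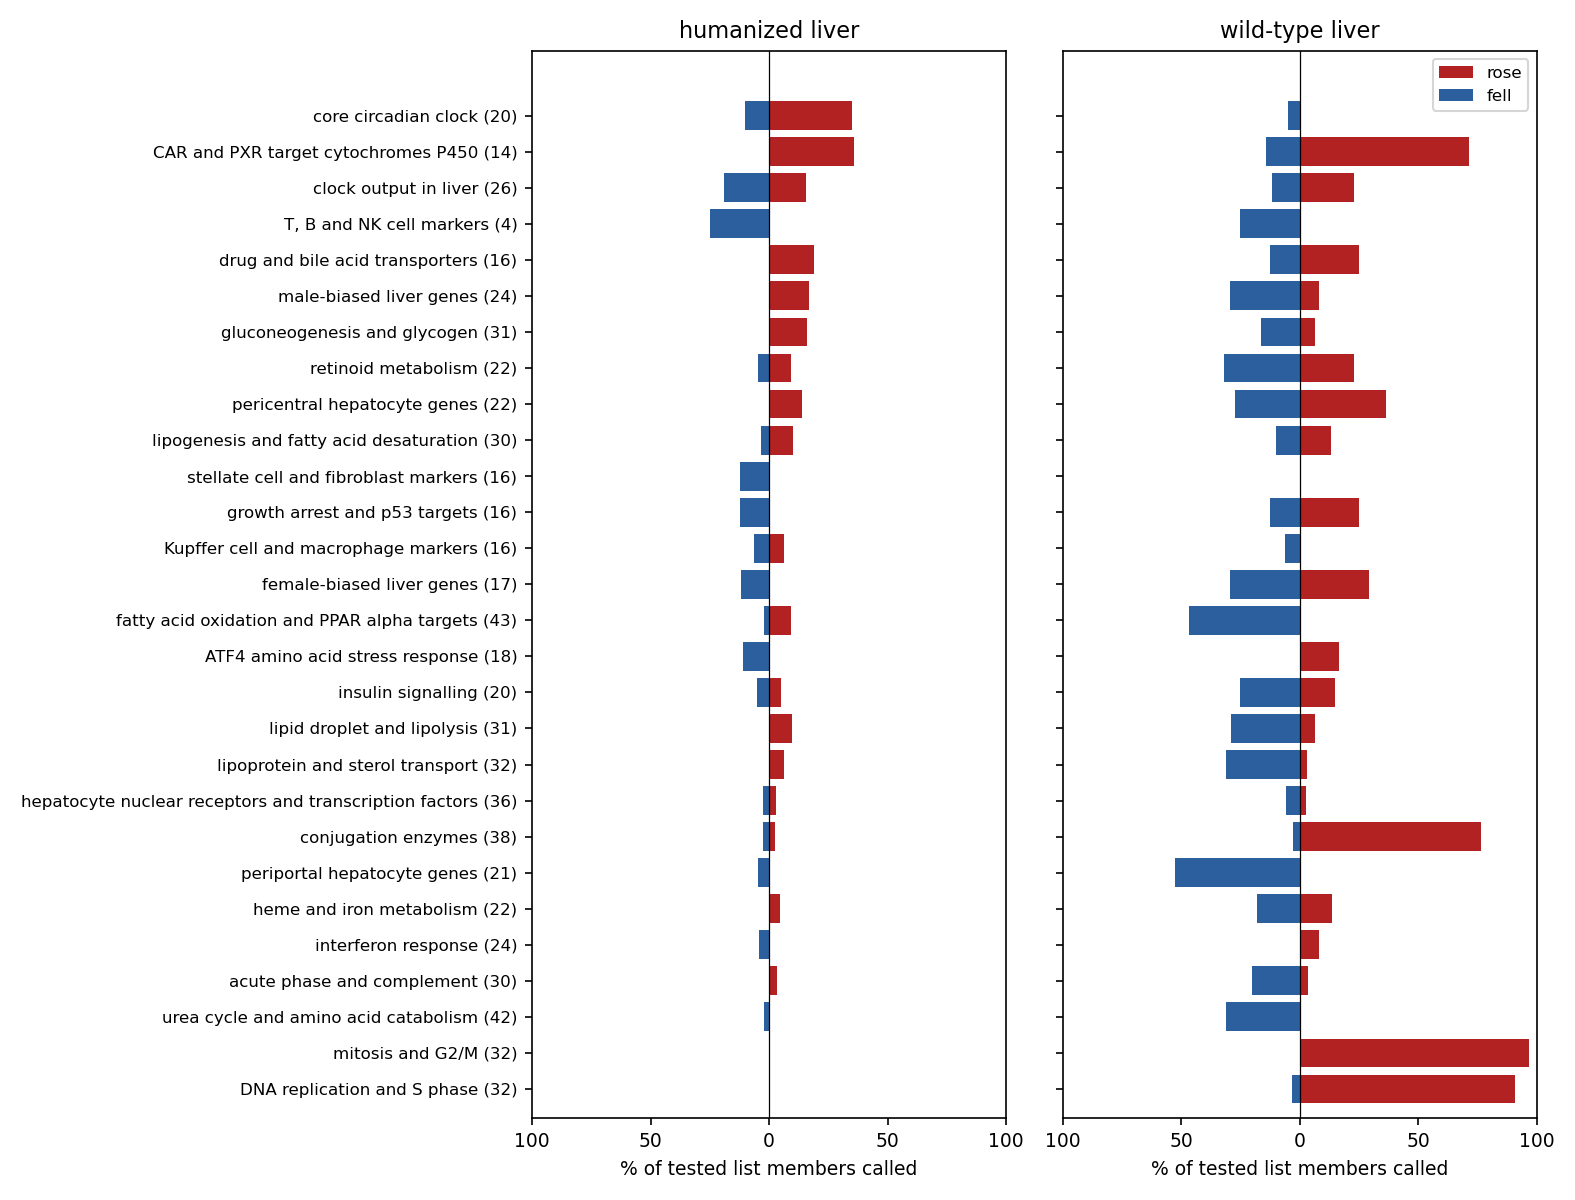
Share of tested members of each gene list that rose (red, right) and fell (blue, left) under TCPOBOP in humanized and wild-type liver, for lists with a call in humanized liver and the 2 proliferation lists; the number tested is in parentheses. The core clock list and the CAR and PXR cytochrome list have the longest red bars in humanized liver, while conjugation enzymes and proliferation genes have bars only, or mostly, in wild-type liver.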

How the data were processed

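Poly(A) RNA from snap-frozen liver, extracted with Trizol, was made into libraries with a NEBNext kit, per the labels' protocols. The authors deposited whole-number counts per RefSeq transcript accession for all 16 libraries. STAR, DESeq2 and the mm10 build are named in the submitters' processing notes; the counting program, annotation release and strand setting: not given in the sources used here. Of the deposited counts of 20 or more, 74.9% were even, where whole numbers divided by 2 and rounded would give 75%, so the counts may have been divided and depth is stated as deposited.

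Of 40458 accessions, 40219 took a symbol from RefSeq (GRCm38.p6) and 125 from a second annotation; 114 without a symbol were kept. Where 1 of the 24970 genes had several accessions (7618 genes), the most abundant one on average stood for it. Genes were filtered with filterByExpr, scaled by TMM and tested with edgeR 4.0.16 (limma 3.58.1, R 4.3.3) by the quasi-likelihood F test over group means of all 16 libraries, which share 1 estimate of spread (12 residual degrees of freedom, common biological coefficient of variation 0.259). P-values were adjusted by Benjamini and Hochberg over 12913 genes, with a threshold of 0.05. They measure the spread between the 4 libraries of a group, pooled over the humanized and wild-type groups. Nothing in the labels says more of the animals. A change is written as log2 ± SE.

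Genes are named if they are among the 15 strongest called changes in each direction (no overlap between groups, mean of at least 5 CPM, no Gm or Rik genes), among up to 6 called members of each list, or in a fixed set. The members, the 43 lists (989 members, 983 matched) and this rule were chosen with earlier results of these data known. Alternatives were DESeq2 1.42.0, its size factors, no filter, summed accessions, the strain alone, a replicate block, leaving out each humanized library, and, chosen after seeing the data, removal of the trend with transcript length. The fits were tested on simulated data. A few named results are not reported here. Coordinates are mm10.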

Additional observations from a re-analysis of the deposited data

Results flagged for a closer look

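Of 202 pairs of a named gene and a humanized group, 13 had 1 library far from the other 3 by Dixon's criterion, where chance gives about 1 in 20. TCPOBOP replicate 3 was the high library for Rgs16 (394.3 CPM), Nipal1 (2.663 CPM), Cyp2b10 (201.2 CPM), Lipg (26.43 CPM) and Cyp7a1 (102.2 CPM). Vehicle replicate 1 was the high library for Cyp2b10 (23.12 CPM), Cyp1a2 (429.1 CPM) and Gsta1 (3.213 CPM). Vehicle replicate 3 was low for Plk2 (12.33 CPM) and Pnpla3 (2.803 CPM), vehicle replicate 4 for Cth (821.9 CPM), TCPOBOP replicate 2 for Ecm1 (48.83 CPM) and TCPOBOP replicate 4 for Pck1 (2690 CPM).

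For 49 of 104 named genes the effect of TCPOBOP differed between humanized and wild-type liver by the edgeR interaction test. Over all genes tested it was 963 of 12913 (7.46%). Of the 104, 79 were called in humanized liver, and that change enters the interaction test, so these shares are not comparable. Each value is the humanized minus the wild-type log2 effect. Among drug metabolism genes the difference was -3.45 for Cyp2b10, -0.95 for Cyp1a2, -4.91 for Cyp2c55, -2.42 for Cyp2c29, -6.91 for Gstm3, -10.7 for Gsta1, -3.38 for Gsta2, -3.03 for Ces2a, -3.78 for Abcc4, 3.73 for Slc22a7 and 3.86 for Slco1a1. It was 1.60 for Nr1i3, whose humanized libraries held little of it.

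Among clock and daily genes it was 4.20 for Dbp, 1.61 for Tef, 3.81 for Bhlhe41, 1.21 for Nr1d1, 4.23 for Rgs16, 2.49 for Usp2 and -4.04 for Noct. Among sex-biased and secreted products it was 4.99 for Mup1, 5.36 for Mup12, 5.73 for Hsd3b5, 5.22 for Serpina12, -3.96 for Nipal1 and 1.56 for Alb. Among glucose and lipid genes it was 4.12 for Slc2a2, 1.90 for Pfkfb3, 1.72 for Gys2, 2.04 for Pck1, 2.32 for Ppara, 0.87 for Bdh1, 1.55 for Ucp2, 1.91 for Mgll and 1.76 for Fabp2.

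For amino acid and signalling genes it was -4.32 for Asns, -2.26 for Csad, -2.92 for Sik1, -3.01 for Fst, -2.91 for Cdkn1a, -3.16 for Mki67 and -1.71 for Ppard. For heme, retinoid and immune genes it was 1.31 for Cpox, 1.79 for Cyp26b1, -1.42 for Aldh1a7, -1.60 for Mx1, -2.45 for Ccr2 and 1.85 for Cd163. For matrix genes it was -2.96 for Col5a2 and -0.97 for Ecm1.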

How the results depend on the processing

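The count of 325 changed genes was 323 with DESeq2 size factors, 302 with no filter, 285 with summed accessions and 469 with the length trend removed, all within 1.5 times. It was 771 with the DESeq2 Wald test, which called 322 of the 325 in the same direction, 182 with the humanized libraries alone, and 855 with the length trend removed and without TCPOBOP replicate 1. Leaving out 1 library gave 74 to 960 genes. The count of 963 genes whose effect differed between strains became 1479 with DESeq2, 1711 with the length trend removed and without TCPOBOP replicate 1, and 630 to 1782 with 1 library left out. The causes of these shifts were not tested.

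With the replicate number as a block, 199 genes passed in humanized liver and 790 differed between strains. Same-numbered humanized libraries did not deviate together (r = 0.072, -0.126, -0.244 and -0.016), so the numbers were not taken to pair the mice.

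Of 79 called named genes none changed direction under any setting, 24 kept their call in all settings and 55 lost it in at least 1, 23 of them with the humanized libraries alone and 25 with the block. The reversals were in genes that never passed. Leaving out 1 library gave log2 changes of -0.342 to 0.327 for Cyp3a11, -0.166 to 0.048 for Nr1i2, -0.180 to 0.269 for Mki67, -0.055 to 0.288 for Pck1, -0.449 to 0.145 for G6pc and -0.054 to 0.112 for Alb. With the length trend removed Mki67 was at -0.024. Without TCPOBOP replicate 1 as well, Cyp3a11 was at -0.031, Nr1i2 at 0.021, Mki67 at -0.033 and G6pc at 0.110. Genes near 3 counts (0.313 to 0.422 CPM) could not be resolved at this depth.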

Other observations

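A few changed genes outside the naming rule were chosen after their values were seen. Ces2e and Ces2g, carboxylesterases with near-identical copies whose single values are uncertain, rose alike. Ces2e went from 40.6, 40.5, 28.9 and 35.1 CPM under vehicle to 75.9, 112, 109 and 113 CPM under TCPOBOP (1.50 ± 0.18, edgeR adjusted p = 0.00116), and in wild-type liver its change was -0.25 (adjusted p = 0.431). Ces2g rose by 1.15 in humanized and 0.74 in wild-type liver (adjusted p = 0.00165 and 0.00391). Smpd3, a neutral sphingomyelinase, rose by 1.62 and 3.56 (adjusted p = 0.0019 and 8.26e-09).

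Gpd1, the cytosolic glycerol-3-phosphate dehydrogenase that links glycolysis to triglyceride synthesis, rose in humanized liver, from 185, 273, 221 and 208 to 392, 393, 338 and 453 CPM (0.83 ± 0.17, adjusted p = 0.0151). It fell in wild-type liver by 1.03 (adjusted p = 0.000301; interaction 1.86 ± 0.23, adjusted p = 0.000127).

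The summed level of 85 cytosolic ribosomal protein genes was 5355 to 5847 CPM in the vehicle libraries and 9383, 5682, 3527 and 3686 CPM in TCPOBOP replicates 1 to 4.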
